A study of Homo sapiens with 24 samples.

Results

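The response to a low level of MCM7 was compared between A375 cells, a human melanoma cell line, and A549 cells, a human lung adenocarcinoma cell line, in 12 of the 24 RNA-seq libraries of the series. In A375 cells the labels set the groups. They were 3 libraries of cells with a doxycycline (Dox)-inducible short hairpin RNA against MCM7 (shMCM7) grown for 72 hours with Dox at 1 μg/ml, and 3 libraries of the same cells without Dox (noDox). In A549 cells the libraries were chosen by the measured level of MCM7 and not by their labels. The 3 A549 libraries with MCM7 under 150 CPM (read counts scaled to library size), called the low-MCM7 libraries here, were labelled shMCM7 Dox replicate 3, shMCM7 noDox replicate 2 and parental noDox replicate 2. They were set against the A549 libraries labelled shMCM7 Dox replicate 2, shMCM7 noDox replicate 1 and parental noDox replicate 3, and values below follow this order. Both A549 sets therefore carry the same 3 labels, and because the low set was selected on MCM7, the A549 values are a description without a test. A supplementary table of the study uses the same A549 library names with what appears to be another assignment of libraries to names. An exchange of A549 labels is therefore possible and was not tested, and every library kept its deposited label here. All cells, parental and Dox-free ones included, had been synchronised by a double thymidine block, which stops cells near the start of S phase. The shMCM7 cells were puromycin-selected populations transduced with a lentiviral vector, not single clones, and the parental cells carried no hairpin.

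MCM7 is a subunit of the MCM2 to MCM7 ring, the helicase that is loaded on replication origins in G1 phase and unwinds DNA in S phase. Origins become licensed when ORC, CDC6 and CDT1 load this ring. Cells usually hold more MCM complexes than they need for an unperturbed S phase. A Dox-inducible hairpin lets the same cells be studied with and without the knock-down, and the comparison of cell lines asks which of the expression changes recur in a cell of another origin.

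The hairpin is shown because it is the agent directed against MCM7, and the bases that a short RNA most often uses to recognise other transcripts (bases 2 to 8) are given in capitals on its complementary strand.
shMCM7 target, sense strand: cagaggaggatttctacgaaa
Complementary strand: tTTCGTAGaaatcctcctctg
The 21 bases lie in the coding sequence of MCM7 on the minus strand of chromosome 7 (GRCh38, chr7:100097728-100097836), across the junction of exons 8 and 9 of the 15 exons of transcript ENST00000303887.9. The match to bases 2 to 8, CTACGAA, was found in the 3′ untranslated region of 1.33% of the 13091 genes kept in both lines that had one. It was found in 8 of 343 genes lower in both lines (2.33%) and in 3 of 274 genes higher in both lines (1.09%). The median length of the region was 1201 bases in the first set and 1896 bases in the second. Among genes lower in 1 line only, as defined below, the match was found in 8 of 354 in A549 (2.26%) and 3 of 157 in A375 (1.91%). These are shares of letters only, and the exact ends of the processed guide were not measured.

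MCM7 was low in all 3 A375 Dox libraries, with 76.8, 76.4 and 77.2 CPM. The noDox libraries held 131, 353 and 359 CPM, so that the groups did not overlap, but noDox replicate 1 lay far below the other noDox replicates and under the limit of 150 CPM used in A549. The knock-down was a log2 fold change of -1.87 ± 0.30 (SE, n = 3 per group, edgeR quasi-likelihood test, Benjamini-Hochberg FDR = 0.00116). In the A549 libraries selected on MCM7, the level was 95.3, 99.7 and 88.6 CPM against 333, 329 and 339 CPM, a log2 difference of -1.82. The other 6 A549 libraries held 299 to 330 CPM, and so no A549 library lay between 99.7 and 299 CPM. The 6 parental A375 libraries held 342 to 369.8 CPM.

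**Figure D1:**
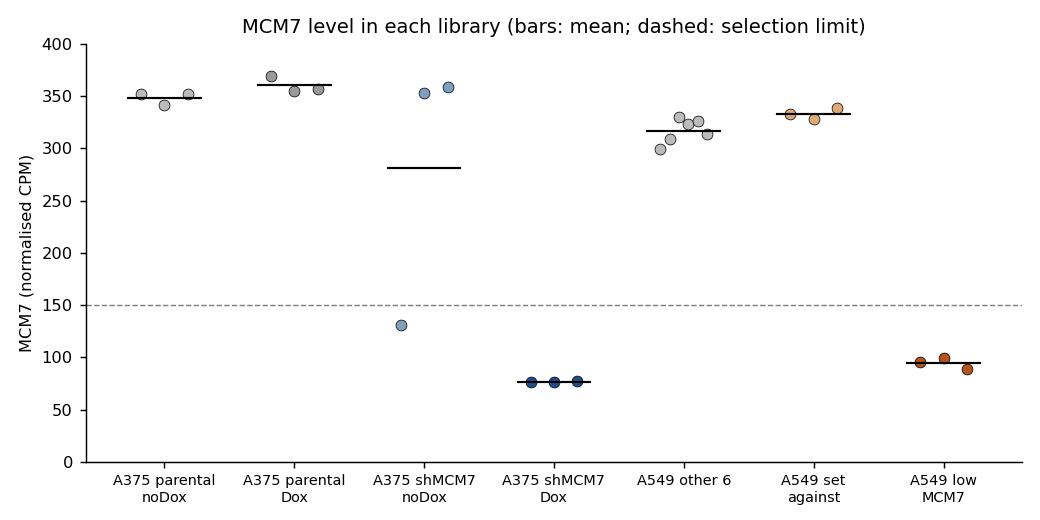
MCM7 level (y axis, normalised CPM) in every library of both cell lines, with a bar at the mean of each set and a dashed line at the limit of 150 CPM that selected the A549 libraries. The 3 A375 Dox and the 3 A549 low-MCM7 libraries lie at 76.4 to 99.7 CPM, and A375 noDox replicate 1 lies at 131 CPM.

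The A375 libraries held 146656792 to 283721575 counts and the A549 libraries 17911338 to 23452823 counts, so that small differences and rare transcripts were measured more precisely in A375. Lineage markers followed the cell lines. The summed level of 7 melanocytic markers, mostly SOX10, was 576 to 686 CPM of the library total in A375 and 37.5 to 49.3 CPM in A549, although TYR and MLANA were at or near 0 in A375. The summed level of 10 lung epithelial markers was 357 to 483 CPM in A375 and 5488 to 6953 CPM in A549. After the mean over all 12 A549 libraries was removed from each gene, the 3 A549 low-MCM7 libraries resembled each other across 13574 genes (r = 0.74 to 0.84), whatever their labels. Libraries of the low set were unlike those they were set against (r = -0.55 to -0.27). The libraries set against also resembled each other (r = 0.36 to 0.63) more than the other 6 A549 libraries (r = -0.27 to 0.33). Some of the results below are therefore also given with those 6 in their place.

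Among 13297 genes with enough counts in both lines, shared directions outnumbered opposed ones. A gene was called in A375 when it changed at least 1.5-fold with p under 0.01 and FDR under 0.05, and was said to lie apart in A549 when the CPM of the 2 sets of libraries did not overlap and the log2 fit gave at least 1.5-fold. In A375, 575 of these genes (4.32%) were up-regulated and 732 (5.51%) were down-regulated by Dox. In A549, 1056 genes (7.94%) lay apart higher and 1123 (8.45%) lay apart lower in the low-MCM7 libraries. There were 284 genes higher in both lines and 344 lower in both lines, called shared here. The 344 include MCM7, on which the A549 low-MCM7 libraries were selected. Another 53 genes went in opposite directions, 12 of them up and 41 down in A375. Of the 575 genes up-regulated in A375, 49.4% lay apart higher in A549 and 2.09% lay apart lower. Of the 732 genes down-regulated in A375, 47.0% lay apart lower in A549 and 5.60% lay apart higher.

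Read in the other direction, with genes picked from A549 alone and measured in A375, the 1056 genes that lay higher in A549 had a median A375 log2 fold change of 0.35, and 847 of them (80.2%) were above 0. The 1123 genes that lay lower had a median of -0.39 in A375, with 175 (15.6%) above 0. The A375 test called 26.9% of the first set up-regulated and 30.6% of the second set down-regulated, against 4.32% and 5.51% of all genes. Across the 13297 genes, the log2 values of the lines were related with Pearson's r = 0.51 and Spearman's rho = 0.49, which describes genes of the same libraries and not independent replicates. The value was r = 0.59 among 10380 genes with at least 5 CPM on average in both lines.

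**Figure D2:**
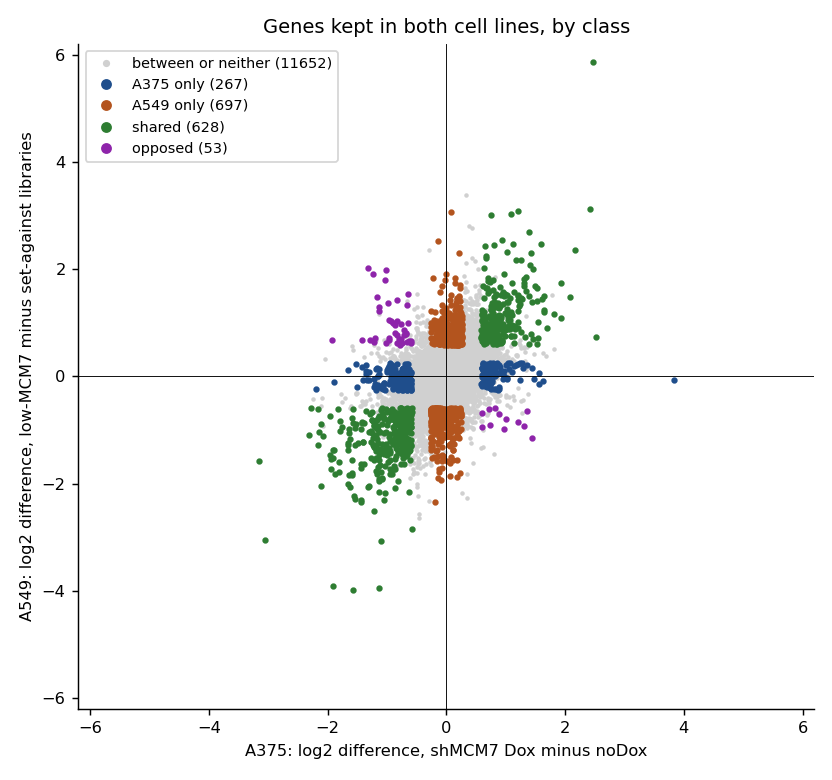
Log2 difference between Dox and noDox shMCM7 libraries in A375 (x axis) against the log2 difference between low-MCM7 and set-against libraries in A549 (y axis) for 13297 genes, coloured by class. The 628 shared genes lie in the lower left and upper right, the 53 opposed genes in the other corners, and the A375-only and A549-only genes lie along the axes.

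A375 noDox replicate 1, with its intermediate MCM7 level, stood a little toward the Dox libraries in the genes called in A375. Genes up-regulated in A375 were higher in it than in noDox replicates 2 and 3 by a median of 0.13 on the log2 scale, compared with 0.82 for the Dox libraries. Down-regulated genes were shifted by a median of -0.18 in it and -0.88 in the Dox libraries. These genes were called with this library included. In the genes picked from A549 alone, its median shift was smaller. It was 0.027 for those higher in A549 (0.35 in the Dox libraries) and -0.049 for those lower (-0.41 in the Dox libraries). Without this library the shared genes numbered 302 higher and 366 lower, and the opposed genes 9 and 46. Without A375 Dox replicate 1 instead, the shared genes numbered 291 higher and 363 lower. Whether the MCM7 level of noDox replicate 1 bears on the class counts was not tested.

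The shared genes with the largest differences in both lines included several known from neurons. CEND1, a membrane protein of neurons that promotes exit from the cell cycle (chromosome 11, 787104 to 790123, GRCh38), held 32.2, 20.6 and 26.8 CPM in the A375 Dox libraries and 7.58, 3.76 and 3.47 CPM without Dox. In A549 it held 18.1, 17.7 and 10.8 CPM in the low-MCM7 libraries and 1.26, 1.38 and 2.64 CPM in the libraries they were set against. No library of the higher set reached down to the lower set in either line. The log2 fold change of CEND1 was 2.43 ± 0.28 in A375 (edgeR FDR = 0.000215), and its log2 difference in A549 was 3.13.

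FXYD7, a small regulator of the sodium pump, was nearly silent in the A549 libraries set against the low-MCM7 libraries. It held 6.37, 4.93 and 6.17 CPM with Dox and 1.30, 0.922 and 0.939 CPM without Dox in A375. In A549 the counts summed to 83 in the low-MCM7 libraries and to 1 in the others, a ratio of 80.2 (95% exact interval of counting error 14.0 to 3205). The A375 log2 fold change was 2.47 ± 0.16 (edgeR FDR = 3.04e-05).

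PIANP, a neuronal cell-surface ligand of PILRα, rose in A375 by 1.59 ± 0.17 (log2 fold change ± SE, edgeR FDR = 0.000134) and was 2.48 higher on the log2 scale in the A549 low-MCM7 libraries. CLSTN2, a calsyntenin of synapses, had log2 values of 2.08 and 1.49. MAPK10, the neuronal JNK kinase, had log2 values of 1.64 and 1.49. Other genes of this group were CTSO, a cysteine protease of the lysosome, UPK2, an uroplakin of the bladder lining, TMEM130 and AC008537.3, with log2 fold changes of 1.46 to 2.17 in A375 and log2 differences of 1.65 to 2.35 in A549.

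A list of neuronal and Polycomb-associated genes gave 7 of 28 measured members that were shared higher and 2 that were shared lower, but this list was drawn up with results of these libraries known and holds CEND1, FXYD7 and PIANP by choice. MAP2, a microtubule-binding protein of dendrites, showed how far the lines differed in level: 0.760 to 0.895 CPM with Dox and 0.320 to 0.384 CPM without Dox in A375, and 9.43 to 14.98 CPM against 1.13 to 2.15 CPM in A549. Its log2 value was 1.2 in A375 and 3.08 in A549. TUBB3 and STMN3, which bind or build neuronal microtubules, went the other way, with log2 values of -0.71 and -1.25 in A375 and -0.65 and -0.66 in A549. MAP2 is named by the rule for list members, whereas TUBB3 and STMN3 were chosen after their values were seen. With the other 6 A549 libraries in place of those set against, 7 members were shared higher and 0 shared lower. In A375, 7 of 28 were up-regulated and 3 down-regulated, so that members of this list did not share a direction there.

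**Figure D3:**
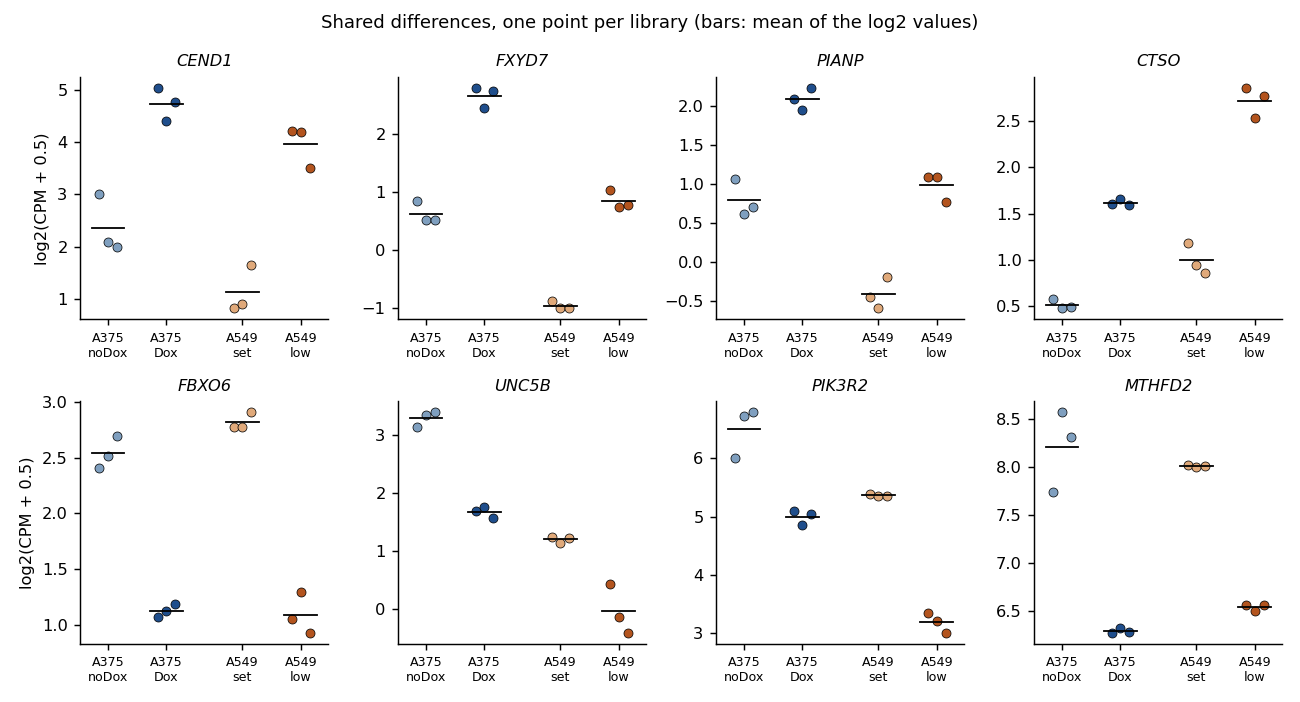
Levels of 8 shared genes in each library on a log2(CPM + 0.5) scale (y axis), in A375 noDox and Dox and in the A549 set-against and low-MCM7 libraries, with bars at the mean log2 value. The upper 4 genes are higher and the lower 4 are lower in the Dox and low-MCM7 libraries, without overlap between the sets of a line.

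Among the shared genes that were lower, PIK3R2, the p85β regulatory subunit of phosphatidylinositol 3-kinase (chromosome 19, 18153118 to 18170540, GRCh38), stood apart in both lines. It held 33.5, 28.6 and 32.6 CPM in the A375 Dox libraries and 63.7, 105 and 110.1 CPM without Dox, where the low value belongs to noDox replicate 1. In A549 it held 9.69, 8.76 and 7.52 CPM against 41.5, 40.4 and 40.3 CPM. The log2 fold change was -1.56 ± 0.18 in A375 (edgeR FDR = 0.000186) and the log2 difference -2.23 in A549. PIK3R3, the p55γ regulatory subunit, had -1.60 ± 0.22 in A375 (edgeR FDR = 0.000463) and -1.57 in A549. PIK3CD, the p110δ catalytic subunit, lay apart in A549 and was not called in A375. It held 29.3 to 31.6 CPM with Dox and 33.7 to 38.0 CPM without Dox in A375, a log2 value of -0.26 that did not reach 1.5-fold, and 6.82 to 8.50 CPM against 16.3 to 17.4 CPM in A549, a log2 difference of -1.15. The difference of these values between lines was not tested.

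Of the 34 measured genes of PI3K and AKT signaling, 3 were up-regulated and 2 down-regulated in A375 (4.32% and 5.51% of all genes). In A549, 6 lay higher and 4 lower (7.94% and 8.45% of all genes). PIK3R2 and PIK3R3 were the 2 shared lower members. IRS2, the insulin receptor substrate, was the shared higher member, with log2 values of 0.79 in A375 and 0.81 in A549, and it fell under 1.5-fold in A375 (log2 0.57) when Dox replicate 1 was left out. In A549 it was not apart from the other 6 libraries (log2 0.46).

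Several of the other shared genes that were lower had few transcripts. KRT6A, an epithelial keratin, held 0.0170 to 0.140 CPM with Dox and 0.434 to 0.822 CPM without Dox in A375, and 0.150 to 0.768 CPM against 1.42 to 7.52 CPM in A549, so that the sets did not overlap in either line while the libraries of a set varied widely. UNC5B, a netrin receptor, was more uniform, with 2.45 to 2.88 CPM with Dox and 8.38 to 10.0 CPM without Dox in A375 and 0.251 to 0.854 CPM against 1.71 to 1.87 CPM in A549. Its log2 values were -1.81 ± 0.10 (edgeR FDR = 3.00e-05) and -1.79. FBXO6, a substrate receptor of SCF ubiquitin ligases that binds glycoproteins, had log2 values of -1.66 and -2.00 from nearly the same starting level in both lines. LMO2, a LIM-domain transcriptional cofactor, C1QL1, EPS8L1, PGBD5, ANKRD22 and CRISPLD1 completed the group with log2 values of -2.11 to -1.60 in A375 and -2.06 to -1.60 in A549. EMILIN3, an extracellular glycoprotein, fell by 1.90 on the log2 scale in A375, and in A549 3 counts in the low-MCM7 libraries against 49, a ratio of 0.0592 (95% exact interval of counting error 0.0118 to 0.183).

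A few enzymes that make one-carbon units and the building blocks for nucleotides were lower in both lines. MTHFD2, a mitochondrial folate enzyme, held 77.1, 79.5 and 77.5 CPM with Dox and 213, 380.3 and 318 CPM without Dox in A375, and 94.4, 90.4 and 94.4 CPM against 261, 256 and 258 CPM in A549. The A375 log2 fold change was -1.96 ± 0.17 (edgeR FDR = 6.45e-05), and the A549 log2 difference was -1.47. PSAT1 of serine synthesis had log2 values of -1.21 and -1.28, and SLC25A32, the mitochondrial folate carrier, -0.76 and -1.33. No member of the 28 measured genes of this list was up-regulated in A375 or lay higher in A549. In A375 4 were down-regulated (5.51% of all genes), and in A549 4 lay lower (8.45% of all genes). MTHFD2, PSAT1 and SLC25A32 were the 3 shared members (4 shared without A375 noDox replicate 1). With the other 6 A549 libraries in place of those set against, 1 lay higher, 5 lay lower and 4 were shared.

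The ATF4 stress-response list holds amino acid transporters and synthesis enzymes. In A375, 8 of 36 members were down-regulated (5.51% of all genes) and none was up-regulated. Only 2 of 36 had a log2 value above 0 in A375 (49.97% of all genes). In A549, 6 lay lower and 1 higher (8.45% and 7.94% of all genes), and 18 of 36 were above 0 (49.49% of all genes). The shared members were SLC7A5 and SLC3A2, which form a neutral amino acid transporter, GDF15, ATF5 and, chosen after its values were seen, CBS. SLC7A5 held 396 to 501 CPM with Dox and 1125 to 1617 CPM without Dox in A375 and 605 to 730.4 CPM against 1424 to 1577 CPM in A549, with log2 values of -1.63 and -1.17. Without A375 noDox replicate 1 the list had 6 members down-regulated in A375 and 4 shared.

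Genes of G2 phase and mitosis formed the list with the lowest median in A375. Of 38 measured members 13 were down-regulated (5.51% of all genes) and none was up-regulated in A375. In A549, 6 lay lower (8.45% of all genes) and none higher. The median log2 value was -0.52 in A375 and -0.29 in A549, beside medians of -0.00025 and -0.0051 over all 13297 genes, and 32 of 38 members were below 0 in both lines against 34.2% of all genes. KIF2C, a kinesin that removes tubulin from microtubule ends, held 50.6 to 55.8 CPM with Dox and 111 to 125 CPM without Dox in A375 and 29.8 to 34.2 CPM against 58.3 to 62.5 CPM in A549. PLK1, AURKA, GTSE1 and, chosen after its values were seen, CCNB1 were the other shared members, the first 3 with log2 values of -0.85, -0.75 and -0.78 in A375 and -0.89, -0.80 and -0.76 in A549. With the other 6 A549 libraries in place of those set against, 5 members lay lower, 4 were shared, and 10 of 38 were above 0 instead of 5. In a bulk sample, fewer cells in a cell cycle phase and fewer transcripts per cell cannot be told apart.

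None of the other 5 subunits of the MCM ring reached 1.5-fold in either line. MCM2 held 189 to 209 CPM with Dox and 208 to 213 CPM without Dox in A375 (log2 -0.07), and 153 to 165 CPM against 131 to 137 CPM in A549 (log2 0.24). MCM4 had log2 values of -0.32 in A375, where its FDR was 0.000933 in the edgeR test but its size under 1.5-fold, and -0.09 in A549. MCM3 (edgeR FDR = 0.00823), MCM5 (FDR = 0.52) and MCM6 (FDR = 0.0502) had log2 values of -0.19, -0.07 and 0.16 in A375 and 0.23, 0.18 and 0.34 in A549. MCM7 was the single gene called or apart among 28 genes of the helicase and of origin licensing. That it lay apart in A549 was fixed by the selection on MCM7. Only 2 of these 28 had a log2 value above 0 in A375, against 13 of 28 in A549. Over all genes, 49.97% were above 0 in A375 and 49.49% in A549. With the other 6 A549 libraries in place of those set against, 16 of 28 were above 0.

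Collagens form fibres and sheets of the extracellular matrix. Of 20 measured collagens 4 were up-regulated and 1 down-regulated in A375 (4.32% and 5.51% of all genes), and 10 lay higher and none lower in A549 (7.94% and 8.45% of all genes), with medians of 0.24 and 0.73 on the log2 scale. COL12A1, a collagen that associates with fibrils, held 192 to 197 CPM with Dox and 111 to 132 CPM without Dox in A375, and 70.8 to 72.7 CPM against 19.5 to 21.4 CPM in A549. COL5A1 had log2 values of 0.63 in A375 and 1.195 in A549, and COL11A1 had 0.67 and 1.64. Leaving out A375 noDox replicate 3 took COL5A1 under 1.5-fold (log2 0.58), and leaving out Dox replicate 2 took COL11A1 under it (log2 0.57).

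Among 43 glycoproteins and proteoglycans of the matrix, 6 were up-regulated and 8 down-regulated in A375 (4.32% and 5.51% of all genes). In A549, 12 lay higher and 4 lower (7.94% and 8.45% of all genes). THBS1, a thrombospondin that binds matrix and cells, held 3138, 3598 and 2919 CPM with Dox and 2125, 1453 and 1265 CPM without Dox in A375, and 186, 171 and 172 CPM against 61.9, 60.5 and 60.6 CPM in A549. FN1, fibronectin, had log2 values of 0.80 and 0.98. NID2, a nidogen of basement membranes, had -0.75 and -1.41, so that the list did not share a direction.

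TIMP2, an inhibitor of matrix metalloproteinases, was higher in both lines. It held 269.5, 293 and 299.7 CPM with Dox and 185, 157 and 154 CPM without Dox in A375, and 579.8, 562 and 579.9 CPM against 310.2, 280.1 and 294 CPM in A549. The log2 values were 0.80 ± 0.08 (edgeR FDR = 9.64e-05) and 0.96. MMP3 rose in A375 from 1.21 to 2.01 CPM without Dox to 4.58 to 8.04 CPM with Dox and was at 0.128 CPM or less in the 6 A549 libraries compared. MMP9 fell in A375 with a log2 fold change of -1.24 ± 0.24 (edgeR FDR = 0.00307) and had too few counts for the A549 fit, with 0.100 to 0.615 CPM in the low-MCM7 libraries and 0.165 to 0.236 CPM in the others. MMP10 was called neither up nor down in A375 (log2 -0.75, edgeR FDR = 0.113) but was called with the replicate block (edgeR FDR = 0.00976) and without noDox replicate 1 (log2 -1.03, FDR = 0.02), and held 0.401 to 0.939 CPM against 0.110 to 0.189 CPM in A549. MMP24 fell in A375 at under 1 CPM (log2 -0.64, edgeR FDR = 0.0272), a call that was lost without any of 4 of the 6 libraries, and held 77.8 to 106 CPM against 104 to 122 CPM in A549.

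Targets of YAP-TEAD and SRF, transcription factors that respond to cell shape and tension, gave 5 shared higher and no shared lower members among 26. Over all genes, 2.14% were shared higher and 2.59% shared lower. CYR61, a matricellular protein also named CCN1, held 250.4 to 259.9 CPM with Dox and 104 to 137 CPM without Dox in A375, and 205 to 218 CPM against 93.5 to 121 CPM in A549. CTGF had log2 values of 0.79 and 0.83, and TGFB2 had 1.16 and 0.88. EDN1, endothelin, had the more unequal values, 2.53 in A375 from under 1.14 CPM and 0.73 in A549 from 70.5 to 79.8 CPM. Of 23 genes of mesenchymal state, TGFBR2, PDGFB and TGFB2 were among those shared higher, and TGFB1 and TGFB3, chosen after their values were seen, were shared lower.

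**Figure D4:**
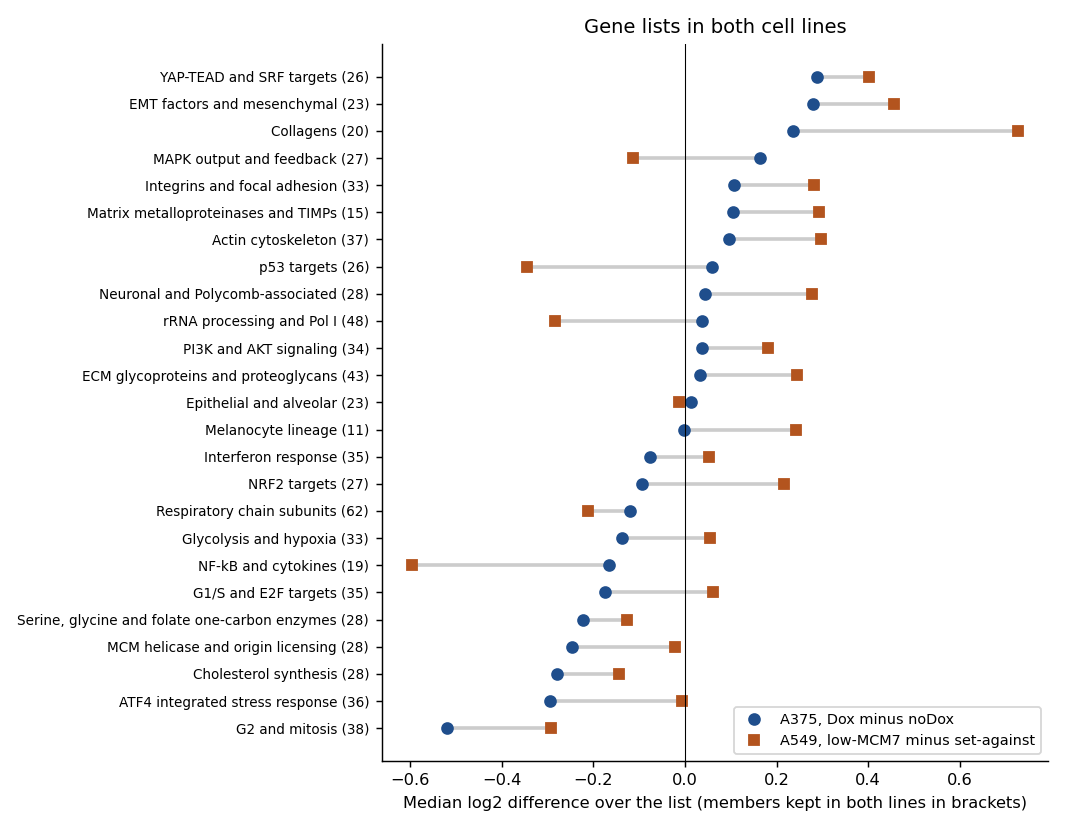
Median log2 difference (x axis) of 25 gene lists in A375 (circles) and A549 (squares), with the number of members kept in both lines in brackets. The lists of G2 and mitosis lie below 0 in both lines, collagens and YAP-TEAD targets above 0 in both, and p53 targets and rRNA processing genes slightly above 0 in A375 and below 0 in A549.

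Of the 53 opposed genes, 4 of 12 and 19 of 41 had under 1 CPM on average in A375, and 5 of 12 and 7 of 41 in A549. When the other 6 A549 libraries took the place of the 3 set against, 6 of the 12 and 25 of the 41 stayed in their class, compared with 241 of 284 and 275 of 344 shared genes. DHRS2, a mitochondrial dehydrogenase, and CA12 were not apart from the other 6 A549 libraries (log2 -0.57 and 0.58). DHRS2 held 14.9, 14.6 and 14.3 CPM with Dox and 6.54, 6.27 and 4.85 CPM without Dox in A375, and 2.09, 2.10 and 2.11 CPM against 4.90, 3.19 and 3.78 CPM in A549, a log2 fold change of 1.31 ± 0.11 (edgeR FDR = 5.97e-05) beside a log2 difference of -0.92. SLITRK6, a membrane protein of neurons and the inner ear, held 136 to 151 CPM with Dox and 65.8 to 75.9 CPM without Dox in A375, but 0.359 to 0.768 CPM against 0.803 to 1.26 CPM in A549. F2, prothrombin, TNNI3, a cardiac troponin, and AQP7, a water and glycerol channel, stayed at 0.234, 0.268 and 0.160 CPM or less in A375. TNNI3 and AQP7 lost the A375 call in several of the alternative fits.

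In the other direction, COL4A4, a chain of basement membrane collagen, fell in A375 from 0.853 to 1.07 CPM without Dox to 0.396 to 0.493 CPM with Dox, and held 28.2 to 34.8 CPM against 11.4 to 15.3 CPM in A549. SPON2, a secreted matrix protein, held 3.96 to 6.02 CPM with Dox and 10.9 to 15.5 CPM without Dox in A375. It had log2 values of -1.32 and 2.02 and was at 0.717 CPM or less in A549. SPON2 had too few counts to be fitted against the other 6 A549 libraries. GPR132, a receptor of lymphoid and myeloid cells, and PRSS35, a protease-like protein, had log2 values of -1.16 and -1.14 in A375 and 1.48 and 1.22 in A549. CA12, a carbonic anhydrase, was at 0.433 CPM or less in A375 and 745 to 1369 CPM in A549, with log2 values of -0.76 and 0.70. The difference between the lines was not tested for any of these genes.

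**Figure D5:**
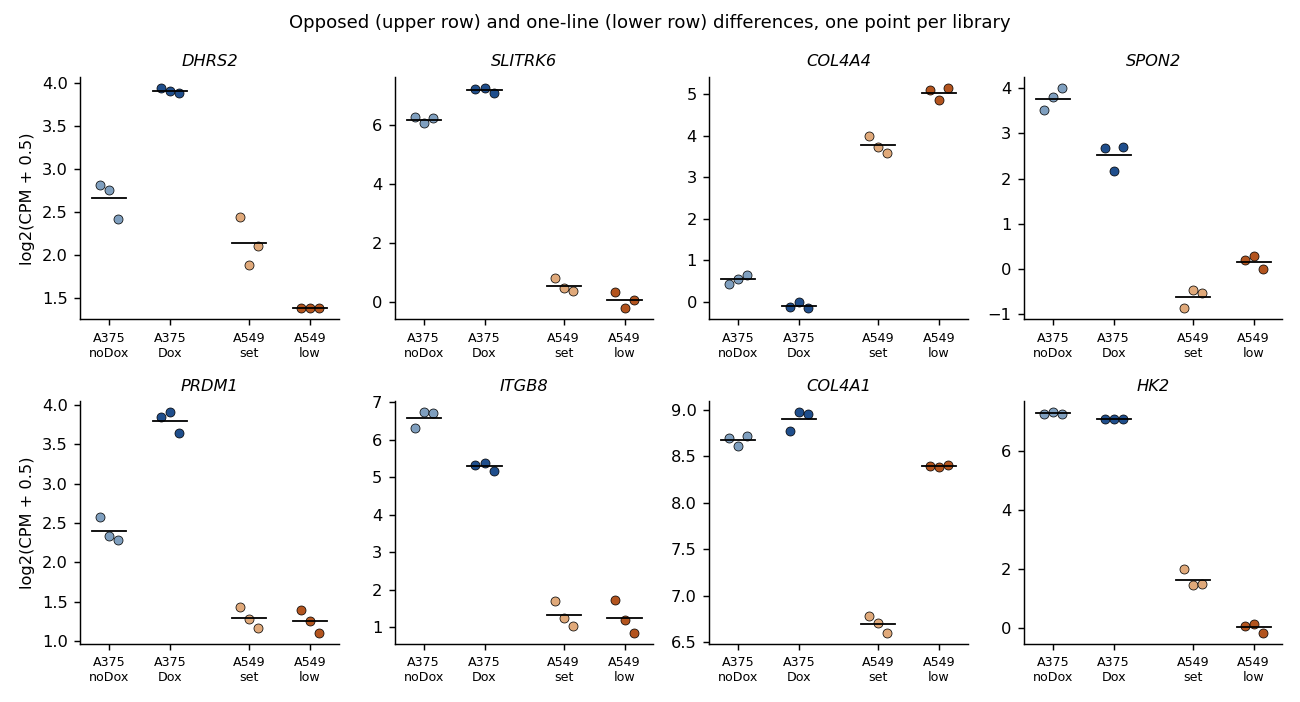
Levels in each library on a log2(CPM + 0.5) scale (y axis) of 4 opposed genes (upper row), 2 A375-only genes (PRDM1 and ITGB8) and 2 A549-only genes (COL4A1 and HK2), with bars at the mean log2 value. DHRS2 and SLITRK6 are higher with Dox in A375 and lower in the A549 low-MCM7 libraries, and COL4A4 and SPON2 the reverse.

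A change in 1 line only was defined as a call in A375 with under 1.2-fold in A549, or the reverse. A gene of these classes can still differ in the other line by less than 1.2-fold. There were 109 genes up and 158 down in A375 only, and 338 higher and 359 lower in A549 only. With the other 6 A549 libraries in place of those set against, 65 of the 109, 111 of the 158, 245 of the 338 and 189 of the 359 stayed in their class. PRDM1, a transcriptional repressor also named BLIMP1, held 13.9, 14.5 and 11.96 CPM with Dox and 5.47, 4.56 and 4.38 CPM without Dox in A375, and 2.13, 1.90 and 1.65 CPM against 2.20, 1.93 and 1.75 CPM in A549. ZNF185, AOX1, an aldehyde oxidase, KCNH1, a potassium channel, and KLHDC7A had log2 fold changes of 1.202 to 1.44 in A375 and log2 differences of -0.07 to 0.24 in A549. ITGB8, an integrin subunit, held 35.7 to 40.9 CPM with Dox and 78.3 to 105 CPM without Dox in A375, and 1.30 to 2.77 CPM against 1.56 to 2.76 CPM in A549. FGFR4, a fibroblast growth factor receptor, fell by 1.15 ± 0.08 (log2 ± SE) in A375 (edgeR FDR = 3.04e-05) and a log2 difference of 0.00 in A549, at a level of 41.6 to 49.9 CPM. RND1, HAPLN3 and ALX4 had log2 fold changes of -1.50 to -1.15. Against the other 6 A549 libraries, KCNH1 lay apart higher (log2 0.81), RND1 apart lower (log2 -0.91) and ALX4 apart higher (log2 0.93), so that KCNH1 and RND1 were then shared and ALX4 opposed.

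COL4A1, another chain of basement membrane collagen, was an A549-only gene. It held 336, 334 and 338 CPM in the low-MCM7 libraries against 109.7, 104 and 96.5 CPM, and 436, 500.3 and 494 CPM with Dox against 412, 389 and 420.1 CPM without Dox in A375. COL1A1, a fibrillar collagen, held 64.7, 64.2 and 56.3 CPM against 10.4, 14.2 and 12.9 CPM in A549, and 3.99 to 6.43 CPM in the 6 A375 libraries. In A549 the fibroblast markers COL1A2 and DCN were at 0 and LUM was at 0.385 CPM or less in the same libraries. TRIM2, SSC5D and ADAMTS15 had log2 differences of 1.64 to 1.79 in A549 and -0.07 to 0.24 in A375. The 0.24 belongs to ADAMTS15 (edgeR FDR = 0.042). HK2, a hexokinase, was lower in A549, with 0.555, 0.615 and 0.401 CPM against 3.46, 2.26 and 2.31 CPM. In A375 it held 133 to 134.9 CPM with Dox and 150 to 155 CPM without Dox. This was a small fall in the same direction, without overlap (log2 -0.19, edgeR FDR = 0.00947). RGMA, WNT10B, RAPGEF3 and KLF2 had log2 differences of -1.94 to -1.79 in A549 and -0.10 to 0.22 in A375. TRIM2 and RGMA were not apart from the other 6 A549 libraries, with log2 differences of 0.68 and -0.54.

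For 3 further lists, counts are read beside the 8.45% of all genes that lay lower in A549 and the 5.51% that were down-regulated in A375. Of all genes, 49.97% had a log2 value above 0 in A375 and 49.49% in A549. Of 26 p53 targets, 6 lay lower and none higher in A549, with 5 of 26 above 0, whereas 1 was down-regulated and none up-regulated in A375, with 15 of 26 above 0. The shared member was CDKN1A, the p21 inhibitor of cyclin-dependent kinases, with 727 to 747 CPM with Dox and 1088 to 1184 CPM without Dox in A375 and 242 to 266 CPM against 471 to 531 CPM in A549. PHLDA3, named here after its values were seen, had a log2 value of -0.55 in A375, short of 1.5-fold, and -1.24 in A549. Of 48 genes of rRNA processing and RNA polymerase I, 6 lay lower and none higher in A549, with 7 of 48 above 0, while 1 was up-regulated and none down-regulated in A375, with 33 of 48 above 0. Of 19 NF-kB and cytokine genes, 10 lay lower and 2 higher in A549, against 3 down-regulated and 1 up-regulated in A375. CXCL8, the neutrophil chemokine, was a shared member, with log2 values of -1.18 and -0.81, and CXCL3 had -1.45 and -2.31.

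The shared members of the remaining lists are read beside the 2.14% of all genes that were shared higher and the 2.59% shared lower. Of 62 respiratory chain subunits, COX6A1 was the shared lower member, with a log2 fold change of -0.59 in A375 that was just past 1.5-fold. Of the 62, 17 were above 0 in A375 (49.97% of all genes) and 3 in A549 (49.49% of all genes), and 44 were below 0 in both lines. RFC3 and POLA2 of DNA replication were shared lower among 35 G1/S and E2F targets. ITGA11 and PTK2 were shared higher and BCAR1 shared lower among 33 integrin and focal adhesion genes, and TAGLN and MARCKS were shared higher among 37 actin genes. BNIP3L was shared higher among 33 glycolysis and hypoxia genes, and SCD shared lower among 28 genes of sterol and fatty acid synthesis. HERC5 was shared lower among 35 interferon response genes. DUSP5 was shared higher and IER3 shared lower among 27 MAPK genes, and no shared gene was found among 27 NRF2 targets. Of 23 epithelial genes, KRT80 was shared higher and LSR and PKP3 shared lower, and of 11 melanocyte lineage genes, AXL and GPNMB were shared higher and BCL2A1 shared lower. CA12 was the opposed member of the glycolysis and hypoxia list and COL4A4 that of the collagens.

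The shared genes were often of like size in the lines. Genes past 1.5-fold in 1 line and under it in the other are outside this class, so likeness of size is partly fixed. Among the 284 shared higher genes, the absolute log2 value was larger in A549 for 203, and it differed by more than 1 for 19. Among the 344 shared lower genes it was larger in A549 for 211 and differed by more than 1 for 20. The median log2 value was 0.82 in A375 and 0.96 in A549 for the higher set, and -0.87 and -1.02 for the lower set. MCM7 itself had -1.87 and -1.82, but its level was what selected the A549 low-MCM7 libraries.

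Genes with enough counts in 1 line alone could not be compared. Whether a gene had enough counts depended on read depth as well as on its level. ADH1C, kept in A375 alone, averaged 0.076 CPM in the 6 A375 libraries and 0.088 CPM in the 6 A549 libraries. In A375, 322 up-regulated and 305 down-regulated genes were among 2790 that had too few counts in A549. CDH5, a cadherin of endothelial cells, was one of them, with 5.53 to 6.62 CPM with Dox and 0.630 to 1.07 CPM without Dox, and a log2 fold change of 2.85 ± 0.18 (edgeR FDR = 3.04e-05). Among the other endothelial markers in A375, KDR held 15.6 to 24.6 CPM with Dox and 10.6 to 19.8 CPM without Dox, and PECAM1 held 0.298 to 0.429 CPM over both groups. SLC13A5, a citrate transporter, was down-regulated from 2.21 to 4.22 CPM to 0.255 to 0.395 CPM. ADH1C and TRIM49C were up-regulated and USH1G and KRT13 down-regulated at under 0.32 CPM. In A549, 45 genes lay higher and 52 lower among 277 with too few counts in A375. STMN4, a neuronal stathmin, held 82 counts in the low-MCM7 libraries and none in the libraries they were set against, at least 26.4-fold higher when 3 counts over the group are taken as the floor. TTBK1, a neuronal tau kinase, held 2.09 to 2.31 CPM against 0.0472 to 0.187 CPM, AGT held 0.597 to 1.65 CPM against 0.165 to 0.283 CPM, and C2orf88, DEFB1 and RIPPLY3 were lower with log2 differences of -2.99 to -2.34.

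Values from other libraries of each line stand beside these results. In A375, the difference between the Dox effect in shMCM7 cells and that in parental cells, fitted over 12 libraries that include the 6 used above, passed the same thresholds for 1720 of 16334 genes (10.5%), 713 higher and 1007 lower. This interaction was 2.48 on the log2 scale for CEND1, 2.68 for FXYD7, -1.61 for PIK3R2, 1.501 for DHRS2 and 1.05 for SLITRK6. It did not reach an FDR of 0.05 for UPK2 (log2 0.55, edgeR FDR = 0.321) or ANKRD22 (log2 -1.08, edgeR FDR = 0.0597). The same held for CTGF, TAGLN, MARCKS, PKP3, FBLN7, AQP7, MMP9, MMP24 and TRIM49C, with edgeR FDR from 0.0615 for PKP3 to 0.782 for TRIM49C, and COL11A1 and IER3 missed the p threshold or the fold. Dox alone called no gene in parental A375 cells with edgeR, where 1121 of 15993 genes had an unadjusted p below 0.05. In A549, Dox against noDox by label in shMCM7 cells also called no gene with edgeR, where 61 of 13550 had an unadjusted p below 0.05, and each of these groups held 1 low-MCM7 library. The interaction of cell line with Dox by label in shMCM7 cells passed the thresholds for 85 of 16234 genes (0.524%), 22 higher and 63 lower in A375. In this test the A549 labels go against the MCM7 counts, so that it does not measure the difference between the lines in their response to low MCM7. Without the A549 shMCM7 Dox library with low MCM7, replicate 3, it gave 357 and 415 genes, and without any other single library 0 to 13 and 0 to 33.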

How the data were processed

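RNA-seq read counts per gene were used as deposited. Per the submitters' processing notes, the authors demultiplexed the reads with bcl2fastq 2.19 and used Trimmomatic, STAR 2.7.1, featureCounts and edgeR with GRCh38.p10. The strand setting and annotation release are not given in the sources used here, so overlapping and near-identical genes are uncertain. Of 21386 genes, 21349 were found in GENCODE release 29, which gave coordinates.

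Genes were kept by filterByExpr on the 6 libraries of each line (16087 in A375, 13574 in A549, 13297 in both), scaled by TMM, and A375 was tested with the edgeR quasi-likelihood test (edgeR 4.0.16, limma 3.58.1, DESeq2 1.42.0 for alternatives, R 4.3.3). The same fit gave the A549 log2 differences, whose p-values were not used because the libraries were chosen by MCM7. Printed CPM were scaled over the 12 libraries of a line. A floor of 3 counts was 0.0106 to 0.0205 CPM in A375 and 0.128 to 0.168 CPM in A549, and intervals cover counting error only. The scripts were tested on simulated data.

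The study describes the replicates as independent biological ones. Deviations of same-numbered A375 shMCM7 libraries from their group means correlated with r = 0.34, 0.19 and 0.34, so replicate numbers were taken to pair them and a replicate block was fitted as an alternative. Other alternatives were DESeq2 size factors, the DESeq2 Wald test, no filter on low counts, a fold of 2, the other 6 A549 libraries, and leaving out each library.

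Genes were named by rule: MCM7, 10 shared and 5 opposed genes in each direction by the smaller absolute log2 value, 5 genes of each one-line class in each direction with at least 1 CPM on average in both lines, 3 in each direction kept in 1 line alone, up to 4 shared or opposed members of each of the 25 lists, MCM2 to MCM6, PIK3R2, PIK3R3, PIK3CD, TIMP2, MMP3, MMP9, MMP10 and MMP24. The members, lists and rules were chosen with earlier results of these data known. Some genes that this rule names are not reported here.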

Additional observations from a re-analysis of the deposited data

Results flagged for a closer look

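For 10 opposed genes, every library of one line moved one way and every library of the other line the opposite way, and the difference between the lines was not tested. As A375 minus A549 on the log2 scale, it was 2.59 for F2, 1.94 for TNNI3, 2.23 for DHRS2, 2.04 for AQP7 and 1.79 for SLITRK6. It was -3.34 for SPON2, -2.65 for GPR132, -2.43 for COL4A4, -2.36 for PRSS35 and -1.46 for CA12. These genes were named because they were opposed, so that their direction is fixed by the choice.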

How the results depend on the processing

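Counts kept within 1.5 times of those reported in all alternatives run except these. With a fold of at least 2, 356 genes lay higher and 386 lower in A549, the shared genes numbered 56 and 94, the opposed genes 1 and 7, the A375-only genes 20 and 34, and the A549-only genes 77 and 71, as a stricter threshold must give fewer. With no filter on low counts, 28 genes were opposed and higher in A375. The cell line by Dox interaction by label gave 0 and 0 genes with the replicate block and 30 lower with DESeq2 size factors, and from 0 to 357 higher and 0 to 415 lower when 1 library was left out. The cause was not tested. With the replicate block, A375 gave 969 and 1091 called genes, and the block changed the call of MMP10 alone among the named genes. Among A375 values that reversed when 1 library was left out, none of which was called, TRIM2 ranged from -0.099 to 0.040, RGMA from -0.22 to 0.11, RAPGEF3 from -0.11 to 0.19, KLF2 from -0.068 to 0.36 and MCM5 from -0.14 to 0.00067. Of the A375 values of named genes, 1158 kept direction and call, 33 lost the call and 2 gained it over the alternatives. Of the A549 values of named genes, 116 moved by more than the spread between libraries and none reversed, and 69 of these moved with the other 6 A549 libraries in place of those set against. There, PGBD5, GTSE1, MARCKS and KRT80 were also not apart. TNNI3, AQP7, MMP24 and COX6A1 lost the A375 call in several. The A549 libraries held fewer counts than those of A375, which limits genes near the floor.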
